A study of Mus musculus with 17 samples.

Results

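The genes described here are 32 genes that mark T cells or carry the signal of the T cell receptor, followed across mouse lungs that lack Clic4 (KO, for knockout) or carry it (WT, wild type). They were picked by symbol from a list of surface proteins, signalling proteins and transcription factors of T cells. All 32 were found among the 54146 genes counted, and all 32 were among the 19557 genes with enough counts to be tested. No measured value entered the choice of the 32, but it was made with earlier results of these data known. Clic4 encodes chloride intracellular channel 4, and the series concerns its part in the host during metastasis of mouse breast cancer.

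RNA of lung tissue was sequenced in 17 libraries. At day 14 there were 5 KO and 6 WT libraries, from mice of 8 weeks, and at day 0 there were 2 KO and 4 WT libraries, from mice of 6 weeks. The strain label of all 4 groups is FVB/6DT1, in which FVB is an inbred mouse strain and 6DT1 the name of a tumour line from mouse mammary gland. The sample labels give neither a treatment between the days nor how the Clic4 allele was made. Day and age differ together and cannot be told apart. The numbers that close the sample titles fall into separate blocks for KO and WT, and within each genotype for day 0 and day 14. Whatever they record cannot be told apart from genotype or from day. The design text of the series gives group sizes other than those of the sample labels, which were followed. No label ties a library to an animal, so p-values measure the spread between these libraries, which may be technical.

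The T cell receptor is an antigen-binding pair of chains held at the cell surface by the CD3 proteins and the zeta chain, which carry the signal inward. The coreceptors CD4 and CD8 bring the kinase LCK to the receptor, LCK and ZAP70 phosphorylate it and the scaffold LAT, and phosphatases, ubiquitin ligases and inhibitory receptors such as CD5 and CD6 restrain the response. In lung the circulating and resident T cells share tissue with natural killer (NK) cells and innate lymphoid cells, which express several of the same genes, among them Cd2, Lck, Il7r, Gata3 and Thy1. A library of whole tissue sums all cells, so fewer T cells and less RNA per T cell cannot be told apart in any value given here.

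The libraries held 20607811 to 35743830 counts each. Clic4 itself measured 333.3, 399, 302, 337 and 308 CPM (counts scaled to an equal library total) in the KO libraries of day 14, against 927 to 1281 CPM in WT with a median of 963 CPM. At day 0 it measured 324 and 328 CPM in KO, against 925, 943, 953 and 952 CPM in WT. Clic4 fell in KO at both days, with a log2 fold change of -1.64 at day 14 (SE 0.09, adjusted p = 9.95e-09 by edgeR's quasi-likelihood test) and -1.53 at day 0 (SE 0.133, adjusted p = 1.93e-05 by the same test). As counts are gene totals, they do not show which exons the remaining KO reads came from.

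T cell RNA was present in every library. The receptor chain gene Trac, which encodes the constant part of the alpha chain and is not one of the 32, had a lowest value of 4.79 CPM, in a KO library of day 14. The lowest count of any of the 32 genes in any library was 19, for Sit1. Most defining genes of thymus were near 0: of 11 genes of thymocytes and thymic epithelium, Rag2, Ptcra, Foxn1, Psmb11, Arpp21 and Aire, 6 genes, stayed under 0.5 CPM in all 17 libraries. Rag1 reached 0.841 CPM and Dntt, the terminal transferase of immature lymphocytes, 1.39 CPM, both in KO library 5 of day 14. The rest of the 11, Cd1d1, Prss16 and Ccl25, had enough counts to be tested. All 11 together summed to 15.69 to 21.67 CPM in the 17 libraries.

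Of the 32 genes, Cd3d, Cd3g and Lck are shown with the sequence before their start sites, since Cd3d and Cd3g start close together and Lck has more than 1 annotated start. Cd3d (chr9:44981786-44987339, plus strand), Cd3g (chr9:44969572-44980431, minus strand) and Cd3e (chr9:44998740-45009627, minus strand) are neighbours, and the start sites of Cd3d and Cd3g lie 1355 bases apart, pointing away from each other (GRCm38). Lck lies at chr4:129548344-129573641 on the minus strand, 5.64 Mb from Clic4, on the chromosome that carries the knockout. Below are the 250 bases before the starts of Cd3d, Cd3g and Lck, from RefSeq on GRCm38.p6, read 5′ to 3′ on the strand of the gene. Capitals mark matches, on either strand, to 1 of 6 motifs. The letters searched were GGAAGT for the ETS factors, TGTGGT for the RUNX factors, CTTTGA for TCF or LEF factors, CAGGTG for the E box, AGATAA for the factors of the GATA family and, for the TATA box, the letters TATAAA.
Cd3d, chr9:44981536-44981785: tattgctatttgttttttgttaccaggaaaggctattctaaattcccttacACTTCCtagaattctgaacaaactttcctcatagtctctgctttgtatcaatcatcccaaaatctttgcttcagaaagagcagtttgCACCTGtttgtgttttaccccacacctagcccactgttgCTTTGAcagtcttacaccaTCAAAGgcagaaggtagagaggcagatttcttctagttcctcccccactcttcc
Cd3g, chr9:44980432-44980681: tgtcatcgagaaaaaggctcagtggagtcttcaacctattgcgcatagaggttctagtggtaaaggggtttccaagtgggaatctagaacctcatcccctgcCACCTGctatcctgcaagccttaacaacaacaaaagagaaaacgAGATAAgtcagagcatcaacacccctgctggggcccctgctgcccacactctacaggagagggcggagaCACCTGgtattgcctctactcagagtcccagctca
Lck, upstream start, chr4:129573642-129573891: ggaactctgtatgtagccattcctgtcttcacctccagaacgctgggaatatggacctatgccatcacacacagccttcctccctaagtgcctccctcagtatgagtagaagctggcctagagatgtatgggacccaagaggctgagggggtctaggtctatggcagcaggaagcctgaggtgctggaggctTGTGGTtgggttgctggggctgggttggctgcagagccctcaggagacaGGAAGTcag
Lck, downstream start, chr4:129558373-129558622: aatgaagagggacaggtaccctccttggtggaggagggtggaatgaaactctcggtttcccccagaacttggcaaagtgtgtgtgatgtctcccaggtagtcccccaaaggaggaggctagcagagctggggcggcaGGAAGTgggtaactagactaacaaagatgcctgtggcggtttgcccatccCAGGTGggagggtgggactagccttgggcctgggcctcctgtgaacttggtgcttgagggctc

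The Cd3d window held TCF or LEF letters 73 bases before the start site and, on the opposite strand, 54 before it, with an E box 112 and ETS letters 199 bases before it, both on the opposite strand. In the Cd3g window E boxes stood 148 and 35 bases before the start on the opposite strand, and GATA letters 104 bases before it. The upstream Lck window held ETS letters 9 and RUNX letters 58 bases before its start, and the downstream one ETS letters 113 and an E box 63 bases before. RefSeq windows were found for 22 of the 32 genes, 35 windows in all as some genes have several starts. ETS letters occurred in 14 of these 35 windows, and in 19.7% of the 32817 windows of the whole table, while E boxes occurred in 9 of 35 and in 17.2% of all. TCF or LEF letters occurred in 6 of 35 windows (13.8% of all), RUNX letters in 5 (14.0%), TATA letters in 4 (12.4%) and GATA letters in 1 (9.99%). These are matches of letters only, and some of the windows belong to the same gene.

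The levels of the 32 genes spanned a wide range. Per length, as FPKM (fragments per kilobase of transcript, scaled to library size) averaged over the 17 libraries, Tcf7, the transcription factor TCF-1 of naive and memory T cells, was highest at 22.3 FPKM. Cd2, an adhesion receptor, followed at 16.6 FPKM, and Lck at 16.1 FPKM. At the low end stood Ubash3a, a protein that dampens receptor signalling, at 0.885 FPKM and Themis, a signalling protein needed for thymocyte selection, at 0.778 FPKM. Steadiest across libraries was Tcf7, whose highest CPM was 1.66 times its lowest. The widest ratio was that of Sh2d2a, the gene of an adaptor that binds LCK, at 5.75 times. Neighbours in this order often lie within the spread of the libraries: Cd2 ran from 10.8 to 24.0 FPKM and Lck from 9.65 to 26.6 FPKM.

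The genes tended to stand high or low in the same libraries, whatever the group. WT library 3 of day 14 ranked among the 3 highest of the 17 libraries for 25 of the 32 genes and was highest for 11. WT library 1 of day 0 was among the 3 highest for 20. KO library 2 of day 14 was lowest for 18 genes and among the 3 lowest for 26, and KO library 4 of day 14 was among the 3 lowest for 21. Libraries of 1 group therefore stood at both ends at day 14: KO libraries 3 and 5 were among the 3 highest for 13 and 12 genes. Gata3, singled out after its values were seen, ran differently, with its highest value in WT library 4 and its lowest in WT library 5, both of day 14. As most of the genes move together, the numbers of genes below or above 0 given further on do not count separate observations.

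**Figure D1:**
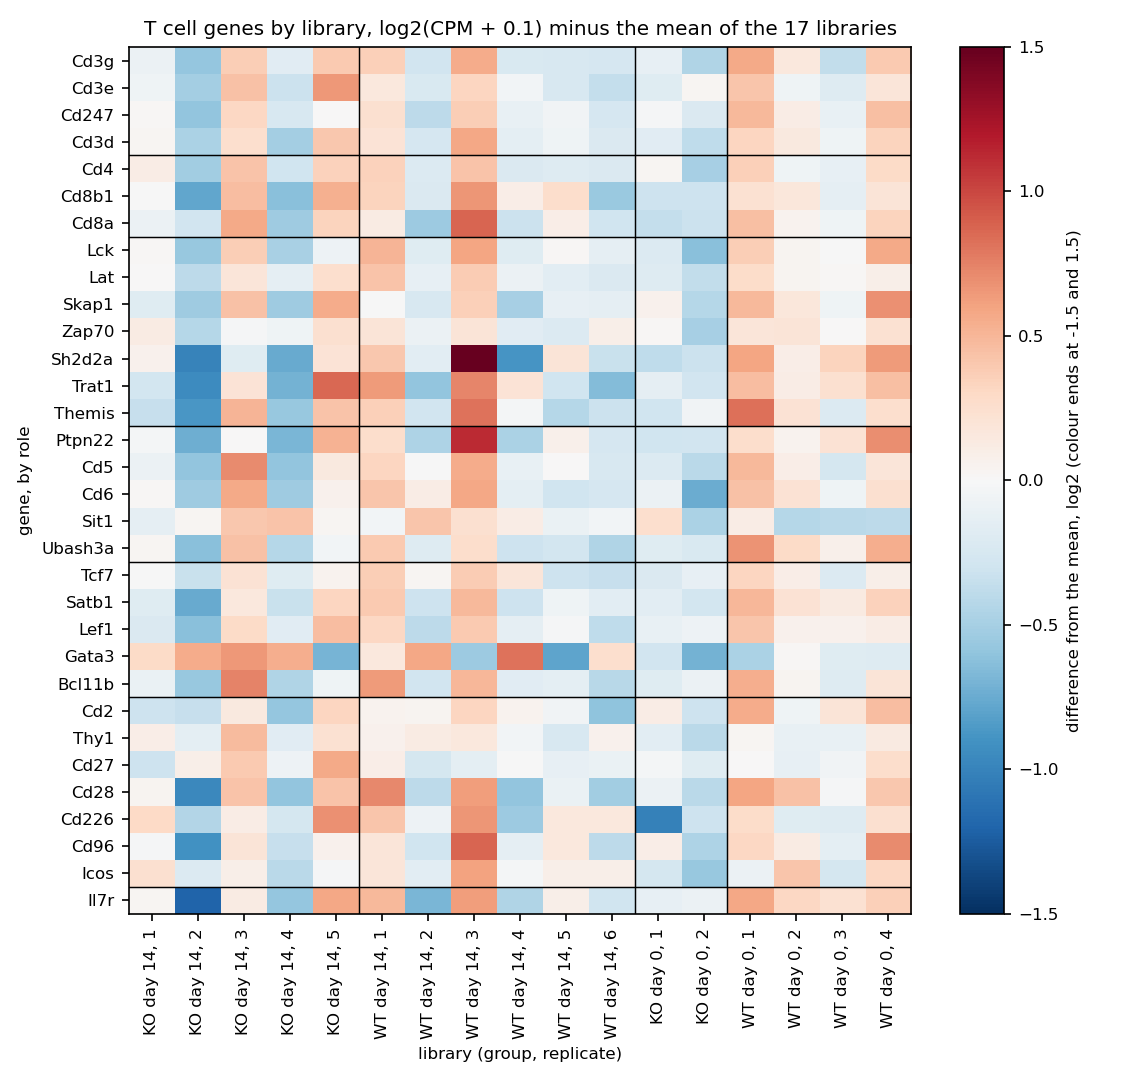
Heat map of the 32 T cell genes (rows, grouped by role) in the 17 libraries (columns, grouped by day and genotype), as log2(CPM + 0.1) minus the mean of the 17 libraries. Whole columns are red or blue: WT library 3 of day 14 is high for most genes, KO library 2 of day 14 is low for most, and both KO libraries of day 0 are on the blue side for most, while the Gata3 row follows another pattern.

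The CD3 and zeta genes encode the signalling chains of the receptor. Cd3g, the most abundant of the 4 per length, measured 9.80, 6.95, 13.5, 9.30 and 13.8 CPM in the KO libraries of day 14, against 8.53 to 15.4 CPM with a median of 8.91 CPM in WT. Its day 0 libraries gave 9.60 and 7.59 CPM in KO, against 15.5, 11.7, 8.09 and 13.8 CPM in WT. The groups overlapped at both days, and the log2 fold change of KO over WT was -0.00208 at day 14 (SE 0.215, adjusted p = 0.999, edgeR) and -0.51 at day 0 (SE 0.314, adjusted p = 0.8, edgeR). Over the 4 chains the KO over WT value ran from -0.0634 to 0.15 at day 14 and from -0.51 to -0.18 at day 0. Cd3d was the only one of the 4 whose KO libraries of day 0, at 5.99 and 6.92 CPM, both lay below all WT libraries, which started at 7.48 CPM.

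Among the coreceptor genes, Cd4 marks helper and regulatory T cells and some myeloid cells, and Cd8a and Cd8b1 mark cytotoxic T cells. Cd4 measured 17.12, 11.0, 21.5, 12.9 and 20.2 CPM in KO at day 14, against 13.7 to 21.4 CPM with a median of 13.8 CPM in WT. At day 0 it measured 16.2 and 11.2 CPM in KO and 20.4, 15.2, 14.6 and 19.4 CPM in WT. Both pairs of groups overlapped (log2 0.0379, SE 0.189, adjusted p = 0.976 at day 14, and -0.35, SE 0.274, adjusted p = 0.844 at day 0, edgeR). Cd8a stood at 5.22 and 5.32 CPM in KO at day 0, below the 9.17, 6.94, 6.40 and 8.49 CPM of WT, yet its value did not pass (-0.56, SE 0.354, adjusted p = 0.801, edgeR). At day 14 Cd8a overlapped, with 6.31, 5.45, 9.99, 4.61 and 8.46 CPM in KO, against 4.55 to 12.3 CPM in WT with a median of 6.31 CPM.

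The ratio of the coreceptor genes overlapped between all groups. That of Cd4 to Cd8a FPKM, a measure chosen after the values were seen, was 3.32, 1.64, 1.97, 2.42 and 2.08 in KO at day 14, against 1.71 to 2.69 with a median of 2.39 in WT. The day 0 ratios were 2.74 and 1.75 in KO, against 2.47, 1.93, 2.17 and 2.01 in WT. Exact two-sided permutation tests of the log2 ratio gave p = 0.991 for KO against WT at day 14 and p = 0.933 at day 0, where 0.0667 is the smallest p that the 15 splits allow. For day 14 against day 0 the exact tests gave p = 1.0 in KO, where 21 splits allow 0.0476 at the least, and p = 0.738 in WT. All 4 were 1.0 after Benjamini-Hochberg adjustment over the 4 tests, and the libraries within a group differed more than the group medians did.

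Kinases and adaptors pass the signal on. Lck, the kinase that first phosphorylates the receptor, measured 24.9, 16.6, 31.8, 17.6 and 23.3 CPM in KO at day 14, against 21.7 to 37.2 CPM with a median of 23.6 CPM in WT. The libraries of day 0 had 21.4 and 16.0 CPM in KO, against 31.9, 25.3, 24.5 and 36.7 CPM in WT. Both KO libraries of day 0 thus lay below all 4 WT libraries, while the groups overlapped at day 14. Lck had the smallest unadjusted p of the 32 genes at day 0 (log2 -0.66, SE 0.293, 95% interval -1.29 to -0.04, unadjusted p = 0.0385), and it did not pass over all genes (adjusted p = 0.729, edgeR). At day 14 its value was -0.25 (SE 0.199, adjusted p = 0.766, edgeR).

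The other 6 kinases and adaptors stood below 0 at day 0 too. Zap70, the kinase that LCK activates, was at -0.37 (SE 0.179), the scaffold Lat at -0.39 (SE 0.195), and Skap1, an adaptor that links the receptor to integrins, at -0.51 (SE 0.315). Sh2d2a, singled out after its values were seen, had the lowest value of all 32 genes at both days. At day 14 it measured 7.42, 3.50, 6.23, 4.14 and 8.21 CPM in KO, against 3.80 to 20.1 CPM with a median of 7.23 CPM in WT. At day 0 it measured 5.4 and 5.66 CPM in KO and 10.7, 7.61, 8.94 and 11.1 CPM in WT. The Sh2d2a groups overlapped at day 14 (log2 -0.6, SE 0.359, adjusted p = 0.676) and did not at day 0 (-0.79, SE 0.526, adjusted p = 0.811), both by edgeR. The high value of 20.1 CPM came from WT library 3, and the next WT library had 9.37 CPM.

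Regulators that restrain the receptor gave the lowest median of any role at day 0, -0.6 over 5 genes. The phosphatase gene Ptpn22, whose product acts on LCK, measured 11.5, 7.04, 11.8, 7.28 and 16.9 CPM in KO at day 14, against 8.47 to 25.7 CPM with a median of 11.2 CPM in WT. Its day 0 libraries gave 9.60 and 9.68 CPM in KO, below the 14.2, 12.3, 13.8 and 19.2 CPM of WT (log2 -0.62, SE 0.432, adjusted p = 0.817, edgeR). Ubash3a measured 2.03, 1.25, 2.73, 1.44 and 1.93 CPM in KO at day 14, against 1.43 to 2.64 CPM with a median of 1.67 CPM in WT. Its day 0 values were 1.73 and 1.68 CPM in KO, below the 3.23, 2.44, 2.10 and 2.94 CPM of WT. The day 0 value was -0.65 (SE 0.305, unadjusted p = 0.0465, adjusted p = 0.73, edgeR), and the day 14 value, with overlapping groups, was -0.0131 (SE 0.211, adjusted p = 0.993, edgeR).

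Sit1 was the exception among the 32 at day 0. This membrane adaptor, which dampens receptor signalling, measured 1.24 and 0.707 CPM in KO and 1.10, 0.730, 0.745 and 0.752 CPM in WT, and its log2 value was 0.22 (SE 0.288, adjusted p = 0.923, edgeR). Its counts were the lowest of the list, 19 to 44 a library, so that counting error is largest here. Sit1 lies on chromosome 4 as Clic4 does (chr4:43482081-43483734, minus strand), 91.7 Mb away from it. Its values were seen before it was singled out.

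The transcription factors of T cells stood closest to 0 of the roles at day 0, with a median of -0.28 over 5 genes. Tcf7 measured 48.0, 38.3, 56.1, 42.4 and 50.2 CPM in KO at day 14, against 37.9 to 62.9 CPM with a median of 52.1 CPM in WT. At day 0 it measured 41.6 and 44.3 CPM in KO and 60.1, 51.7, 41.7 and 51.1 CPM in WT, 1 of which lay between the KO values. Its KO over WT values were -0.12 at day 14 (SE 0.142, adjusted p = 0.854) and -0.25 at day 0 (SE 0.205, adjusted p = 0.848), both by edgeR. Satb1, a chromatin organiser of T cells, was at -0.15 (SE 0.189) and -0.52 (SE 0.275), and Lef1, a relative of TCF-1, at -0.00337 (SE 0.182) and -0.26 (SE 0.263), at day 14 and day 0 in that order. Bcl11b, which holds cells to the T lineage, was at -0.0838 (SE 0.246) and -0.31 (SE 0.357).

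Gata3, the factor of type 2 helper T cells that innate lymphoid cells also use, was the only one of these factors with a spread of over 3 times, 3.05 times between its extreme libraries. It measured 20.5, 24.8, 26.3, 24.6 and 10.3 CPM in KO at day 14, against 9.70 to 29.5 CPM with a median of 19.4 CPM in WT. The libraries of day 0 had 13.8 and 10.3 CPM in KO, against 12.1, 17.07, 14.8 and 14.7 CPM in WT. In KO, 4 of the 5 libraries of day 14 lay above both libraries of day 0 and the other at their lower end. The day 14 over day 0 value in KO was 0.83 (SE 0.412, unadjusted p = 0.0639, adjusted p = 0.578, edgeR), the highest of the 32, and in WT it was 0.39 (SE 0.305, adjusted p = 0.72, edgeR).

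Costimulatory and adhesion receptors set the threshold for activation and hold T cells to their partners. Cd2 measured 12.3, 12.1, 17.04, 10.3 and 19.2 CPM in KO at day 14, against 10.1 to 19.3 CPM with a median of 15.9 CPM in WT. At day 0 it measured 16.7 and 12.4 CPM in KO and 22.7, 14.8, 17.6 and 21.2 CPM in WT. Its groups overlapped at both days, and the values were -0.12 at day 14 (SE 0.178, adjusted p = 0.898) and -0.39 at day 0 (SE 0.257, adjusted p = 0.81), by edgeR. Cd28, the main costimulatory receptor, was at -0.62 at day 0 (SE 0.432), and Icos, its inducible relative, at -0.53 (SE 0.245, unadjusted p = 0.0427, adjusted p = 0.729, edgeR). Cd226, an activating receptor shared with NK cells, was at -0.7 (SE 0.34, adjusted p = 0.746, edgeR).

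Thy1 had the smallest p of the list between the days in KO, and Cd27 between the genotypes at day 14. Thy1, a surface glycoprotein of T cells and of fibroblasts, measured 15.0, 12.7, 19.5, 12.5 and 16.5 CPM in KO at day 14, against 11.9 to 15.6 CPM with a median of 14.7 CPM in WT. Its day 0 libraries gave 12.6 and 10.5 CPM in KO, below the 14.4, 13.0, 12.9 and 15.4 CPM of WT (log2 -0.27, SE 0.158, adjusted p = 0.795, edgeR). Cd27, a costimulatory receptor of the tumour necrosis factor receptor family, measured 5.52, 7.29, 9.02, 6.49 and 10.2 CPM in KO at day 14, against 5.67 to 7.37 CPM with a median of 6.33 CPM in WT. In KO, 2 libraries stood above every WT library and 1 below every WT library. Its value of 0.25 (SE 0.134, unadjusted p = 0.0773, adjusted p = 0.615, edgeR) was the highest of the 32 and had the smallest p in that comparison. The Cd27 values of day 0 were 6.71 and 6.03 CPM in KO and 6.90, 6.30, 6.60 and 8.28 CPM in WT, with overlap.

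Il7r encodes the interleukin 7 receptor that keeps naive and memory T cells alive. It measured 25.8, 10.9, 27.4, 16.8 and 37.8 CPM in KO at day 14, against 15.7 to 38.9 CPM with a median of 23.7 CPM in WT. At day 0 it measured 23.1 and 23.8 CPM in KO, below the 37.8, 31.4, 29.6 and 32.2 CPM of WT. The values were -0.13 at day 14 (SE 0.293, adjusted p = 0.936) and -0.48 at day 0 (SE 0.424, adjusted p = 0.862), both by edgeR. The 2 KO libraries of day 0 lay close together, while those of day 14 covered nearly the whole range of the 17.

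**Figure D2:**
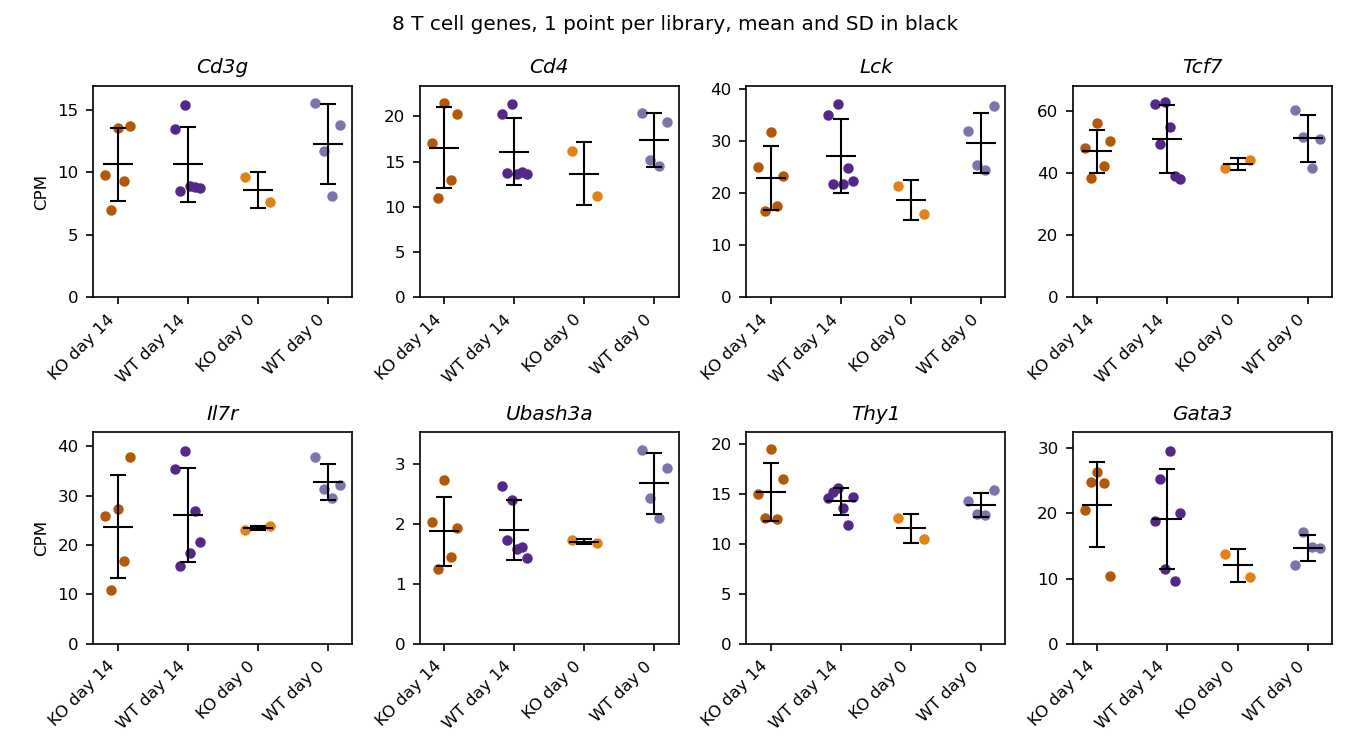
CPM of 8 T cell genes by group (horizontal axis), with 1 point per library and the mean and SD in black; the groups are KO and WT at day 14 (n = 5 and 6) and KO and WT at day 0 (n = 2 and 4). At day 0 both KO points of Lck, Il7r, Ubash3a and Thy1 lie below all WT points, whereas all 8 genes overlap between KO and WT at day 14.

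Across the list, T cell genes stood lower in the KO lungs than in the WT lungs at day 0, with no gene past the test. Of the 32 genes 31 had a log2 value below 0, where 49.7% of all genes did, and 1 a value above 0, where 50.2% did, and the median was -0.465 against 0.00073 over all genes tested. None of the 32 was called at an adjusted p under 0.05 by edgeR, where 0.0256% of all genes were, and the smallest adjusted p was 0.729. An unadjusted p under 0.05 was found for 3 genes, Lck, Icos and Ubash3a, and for 6.74% of all genes. With 1 library left out that count of members ran from 0, without WT library 4 of day 0, to 7, without KO library 2 of day 14, and with the day 0 groups fitted alone it was 15, where 1649 of 18588 genes had such a p. DESeq2 called none of the 32 either, with 7 at an unadjusted p under 0.05, and limma-voom none, with 2.

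In 16 of the 32 genes both KO libraries of day 0 lay below all 4 WT libraries, as in 9.12% of all genes, and in none did both lie above, as in 8.88% of all genes. The 16 were Cd3d, Cd8a, Cd8b1, Lck, Lat, Sh2d2a, Trat1, Ptpn22, Cd6, Ubash3a, Lef1, Satb1, Thy1, Cd28, Cd226 and Il7r, which come from every role. Because the genes follow each other from library to library, these are not 16 separate observations. The count was 28 without KO library 1, where 25.5% of all genes were so placed, and 26 without WT library 3, where 13.1% were. With values in FPKM it was 13 of 32, against 9.68% of all genes.

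At day 0 KO had 2 libraries. The SE of the 32 genes had a median of 0.309, and for 11 of them the 95% interval stayed within a log2 of 1 on either side of 0. For the others the lower bound went beyond a log2 of -1, so a KO level far below that of WT was inside their intervals. No interval of the 32 reached above a log2 of 1.

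Genes of other lymphocytes stood lower in the same KO libraries. The summed CPM of the 32 T cell genes was 323 and 291 in KO at day 0, against 352 to 465.7 in WT. B cell genes, 12 of 12 detected, summed to 242 and 143 CPM in KO, against 294 to 418 CPM in WT, and all 12 were below 0 (median -0.981). Of 12 NK cell genes all were below 0 (median -1.15), with sums of 118 and 71.4 CPM in KO, against 124 to 236 CPM in WT, and Klra8 stayed under 0.5 CPM in every library. No gene of either list was called, where 0.0256% of all genes were. The proliferation genes gave a median of -0.656 with 10 of 10 below 0, but their sums overlapped. These were 132.3 and 121.8 CPM in KO, against 227.4, 209.1, 114.1 and 141.5 CPM in WT. Of 12 myeloid genes 6 were below 0, with a median of 0.0106.

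Fat genes differed between the 2 KO libraries of day 0. The 10 genes of brown and white fat summed to 86.5 CPM in KO library 1 and 205 CPM in KO library 2, against 68.8 to 79.3 CPM in WT. Ucp1, the uncoupling protein of brown fat, had 0.106 CPM in the first and 24.2 CPM in the second. Genes of lung epithelium and endothelium summed to 41710 and 42930 CPM in KO at day 0, against 36690 to 40580 CPM in WT. Such a sum follows the most abundant genes, and the 12 genes did not all stand on 1 side. Of them 4 were below 0, with a median of 0.129, from -0.31 for Cldn5 (SE 0.29) to 0.28 for Abca3 (SE 0.104). The part of these differences in the T cell values was not tested. Without KO library 2 the median of the T cell genes was -0.358, and without KO library 1 it was -0.573.

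**Figure D3:**
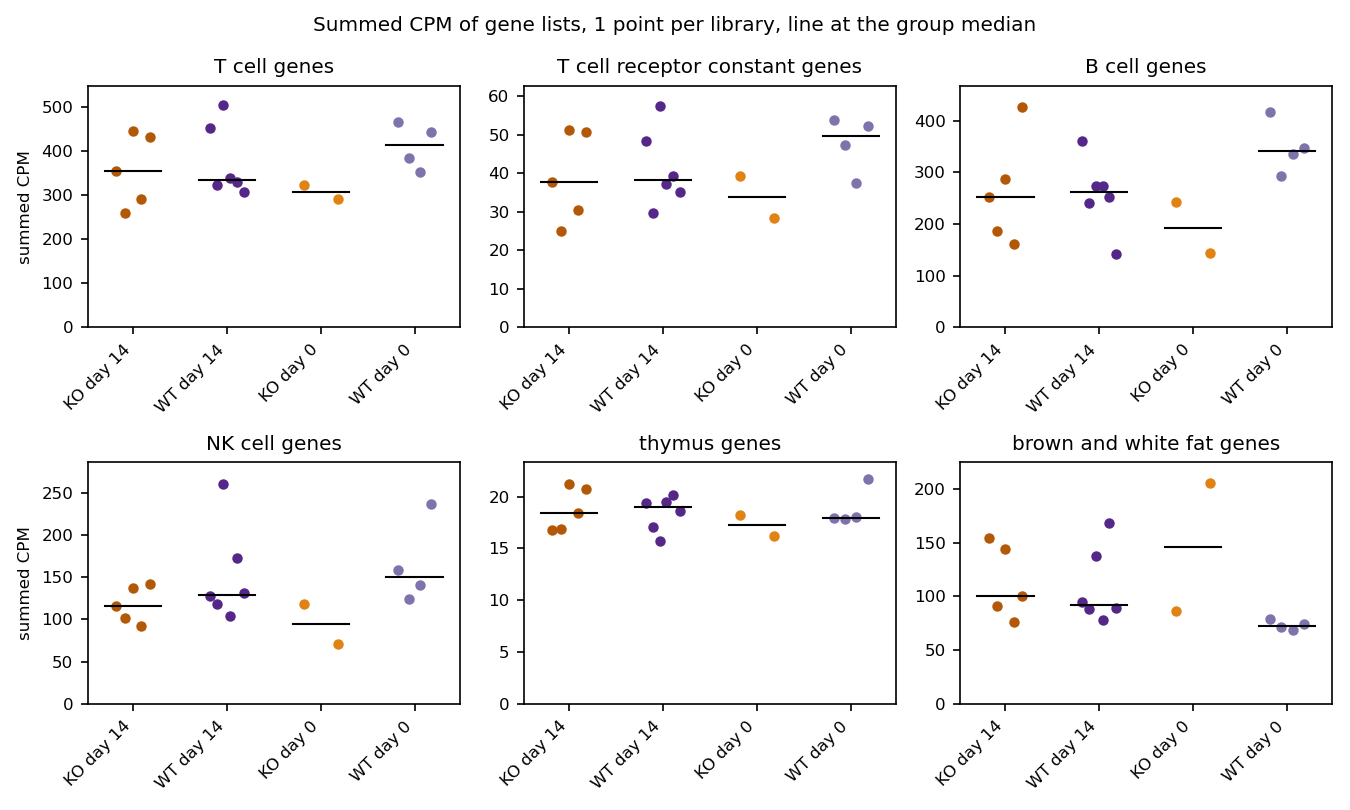
Summed CPM of 6 gene lists by group (horizontal axis), with 1 point per library and a line at the group median, for the 32 T cell genes, the receptor constant genes, B cell, NK cell, thymus and fat genes. At day 0 both KO points lie below all WT points for T, B and NK cell genes, and 1 of the KO points, at 205 CPM, stands far above WT for fat genes.

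At day 14 the T cell genes of KO and WT lungs overlapped throughout. Of the 32, 25 were below 0 and 7 above, where 49.7% of all genes were below and 50.3% above. Their median was -0.0736 against 0.00109 over all genes tested. None was called by edgeR, where 0.107% of all genes were, and none had an unadjusted p under 0.05, which 8.95% of all genes had. DESeq2 and limma-voom also called none, with 0 at an unadjusted p under 0.05. In no gene did all 5 KO libraries lie below all 6 WT libraries, as 0.394% of all genes did, or above them, as 0.583% did. NK cell genes also stood below 0 in KO at day 14, in 11 of 12 genes with a median of -0.624, none called and 3 with an unadjusted p under 0.05 by edgeR, and they summed to 92.6 to 142 CPM in KO, against 104 to 260.0 CPM in WT. Of the B cell genes 5 of 12 were below 0, with a median of 0.0754. The part of these cells in the T cell values was not tested.

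Intervals were narrower at day 14, with a median SE of 0.212. For 31 of the 32 genes the 95% interval stayed within a log2 of 1 on either side of 0, and Sh2d2a was the other, at -1.36 to 0.173. The direction of the median depended on single libraries: it was 0.0357 without KO library 2, 0.0305 without WT library 3 and 0.00149 without WT library 1. It was -0.0141 without KO library 4, and lay further below 0 without KO library 3 (-0.188), KO library 5 (-0.147), WT library 6 (-0.139), WT library 2 (-0.119) and WT library 5 (-0.113). The number of genes below 0 ran from 9 to 29 as single libraries were left out. By role, medians ran from -0.17 for the kinases and adaptors to -0.0141 for the coreceptors.

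**Figure D4:**
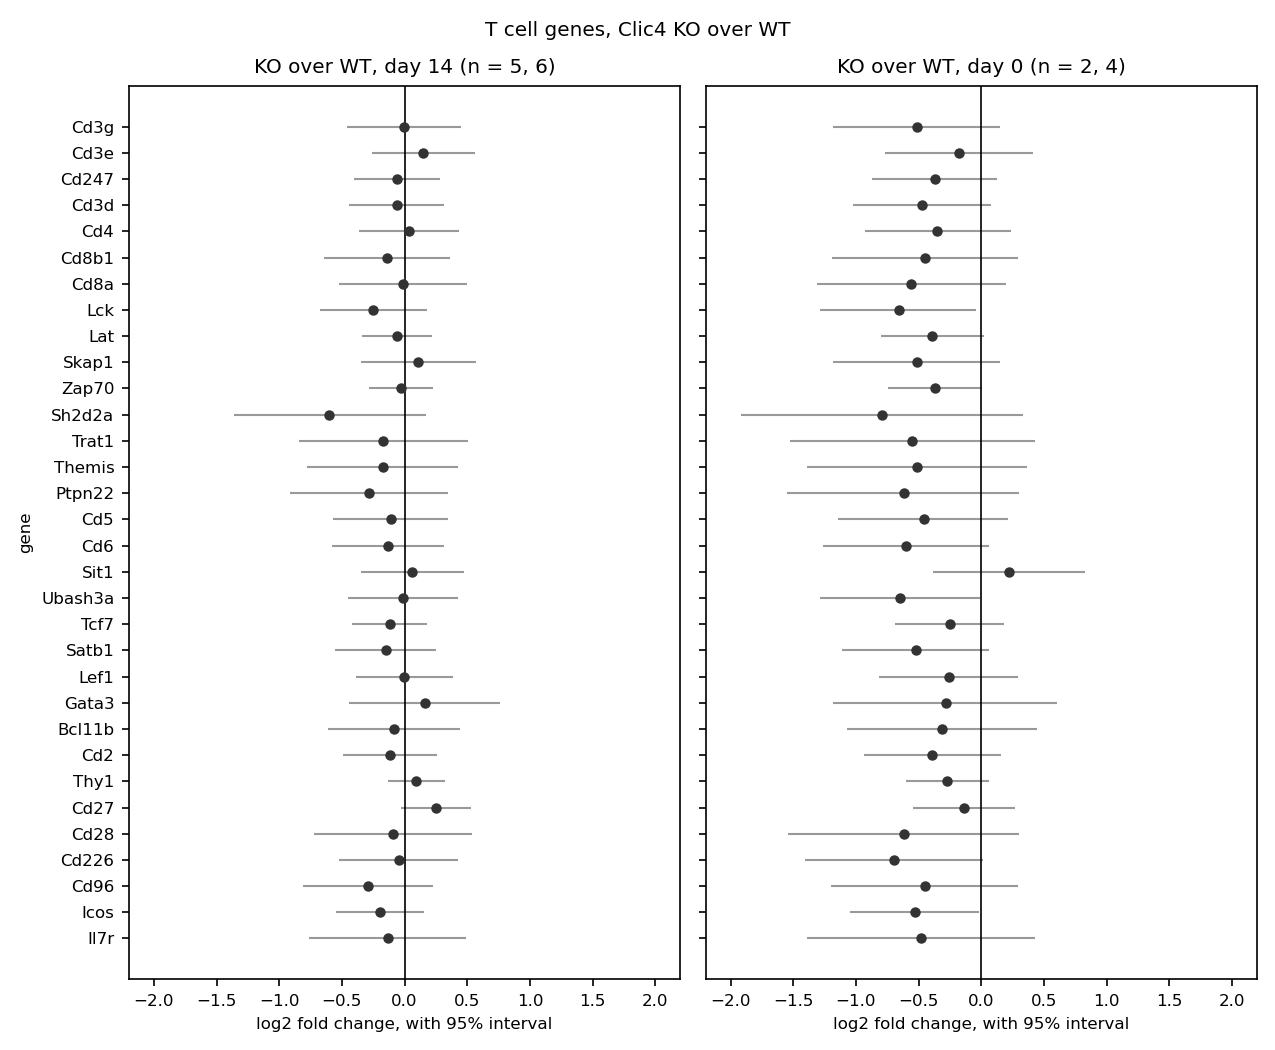
Log2 fold change of KO over WT for the 32 T cell genes (vertical axis) at day 14 (left, n = 5 KO and 6 WT) and day 0 (right, n = 2 KO and 4 WT), with 95% intervals from the edgeR fit as bars. At day 14 the points sit around 0, from -0.6 to 0.25; at day 0 all but Sit1 sit below 0 with wider bars, most of which cross 0.

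Whether the KO effect differed between the days was tested directly. The difference, the KO over WT value of day 14 minus that of day 0, was above 0 for 31 of the 32 genes, as for 51.1% of all genes, and below 0 for 1, as for 48.9%, with a median of 0.348 against 0.00508 over all genes. None was called, as none of all 19557 genes was (0.0%), and none had an unadjusted p under 0.05, which 4.55% of all genes had. Thy1 had the smallest p (0.36, SE 0.192, unadjusted p = 0.0779, adjusted p = 0.988, edgeR), and Cd226 the largest value (0.65, SE 0.406, adjusted p = 0.988, edgeR). DESeq2 and limma-voom called none of the 32 here, with 0 at an unadjusted p under 0.05. Only 10 of the 32 intervals stayed within a log2 of 1 on either side of 0, and both effects entered with their own day's control libraries. As the difference is built from the KO over WT values of the days, it is not independent of them. Nor are the 31 genes above 0 separate observations, since the genes follow each other from library to library.

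Between the days, T cell genes stood slightly higher at day 14 in KO and slightly lower at day 14 in WT, with none past the test. In KO 31 of the 32 genes were above 0, where 52.6% of all genes were, and 1 below, where 47.3% were, and the median was 0.203 against 0.0105 over all genes. None was called by edgeR, as none of all genes was (0.0%), and 2 had an unadjusted p under 0.05, Thy1 (log2 0.4, SE 0.154, unadjusted p = 0.0191, adjusted p = 0.44) and Cd226 (0.78, SE 0.333, unadjusted p = 0.0312, adjusted p = 0.493). Of all genes 9.05% had such a p. In no gene did all 5 libraries of day 14 lie below both of day 0, as 6.2% of all genes did, or above them, as 5.59% did. DESeq2 called none of the 32, with 3 at an unadjusted p under 0.05, and limma-voom none, with 1. The interval of 24 genes stayed within a log2 of 1 on either side of 0. As this comparison and the day 0 genotype comparison share the 2 KO libraries of day 0, their values are not independent of each other. The 31 genes above 0 also follow each other from library to library and are not separate observations. The median was 0.119 without library 3, 0.133 without library 5 and 0.305 without library 4 of day 14, and 0.358 without library 1 of day 0. Some other lists stood higher in KO at day 14 as well, with none called: 11 of 12 B cell genes were above 0 (median 0.512), 11 of 12 NK cell genes (median 0.327) and 10 of 10 proliferation genes (median 0.339). Other lists did not. Of the lung epithelium and endothelium genes 11 of 12 were below 0 (median -0.123), and of the fat genes 9 of 10 (median -0.323). Of 12 myeloid genes 6 were below 0 (median -0.00936). The part of these lists in the T cell values was not tested.

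In WT 26 of the 32 genes were below 0 at day 14 relative to day 0, where 49.6% of all genes were, and 6 above, where 50.4% were, and the median was -0.142 against 0.00164 over all genes. None was called by edgeR (0.0% of all genes were), and Ubash3a was the only one with an unadjusted p under 0.05 (-0.49, SE 0.216, unadjusted p = 0.0354, adjusted p = 0.512), which 9.06% of all genes had. In no gene did all 6 libraries of day 14 lie below all 4 of day 0, as 1.38% of all genes did, or above them, as 1.2% did. DESeq2 and limma-voom called none, with 1 gene each at an unadjusted p under 0.05. The highest value was that of Sit1, at 0.41 (SE 0.214, adjusted p = 0.575, edgeR). The intervals of 31 genes stayed within a log2 of 1 on either side of 0. The WT libraries of day 0 also enter the day 0 genotype comparison, so its values and these are not independent of each other. Here too the genes follow each other, and the 26 below 0 are not separate observations. The median was -0.0831, -0.0839 and -0.0881 without libraries 6, 2 and 4 of day 14 in turn, -0.253 without library 3 of day 14, and -0.0576 and -0.0895 without libraries 1 and 4 of day 0. B cell genes stood lower at day 14 in WT as well, with 12 of 12 below 0 and a median of -0.563. So did 9 of 12 NK cell genes (median -0.274) and 9 of 10 proliferation genes (median -0.193). Of 10 fat genes 1 was below 0 (median 0.563), and of 12 myeloid genes 5 were (median 0.0488). The part of these lists in the T cell values was not tested.

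**Figure D5:**
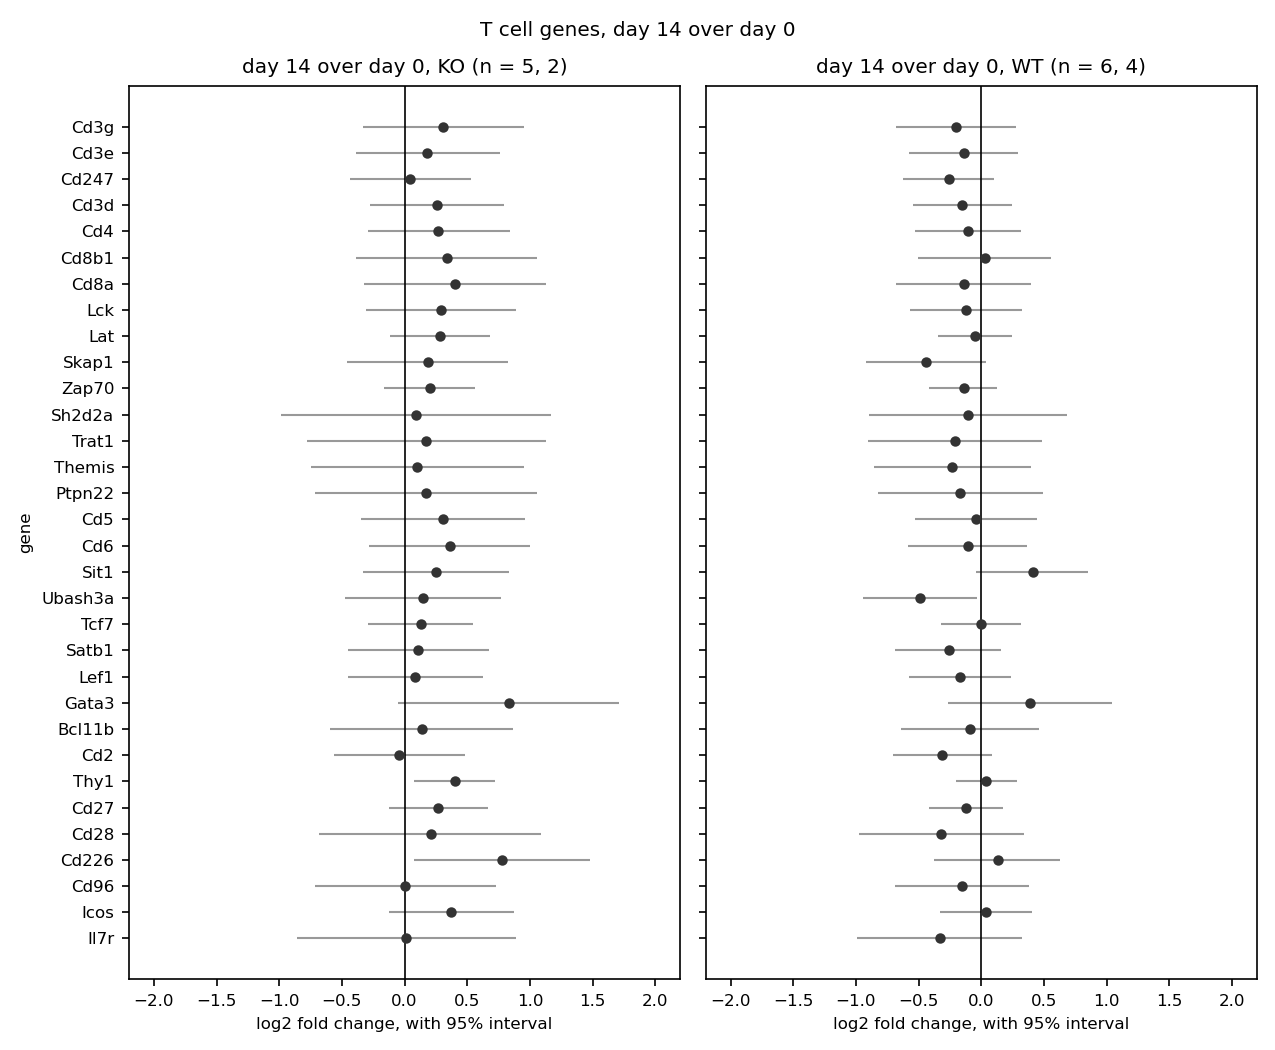
Log2 fold change of day 14 over day 0 for the 32 T cell genes (vertical axis) in KO (left, n = 5 and 2) and WT (right, n = 6 and 4), with 95% intervals from the edgeR fit as bars. In KO all but Cd2 sit above 0, with Gata3 at 0.83 and Cd226 at 0.78 farthest out; in WT 26 sit below 0, and Sit1 and Gata3 are the highest.

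The genes of the antigen-binding chains are not among the 32, and none of them was called in any comparison, where at most 0.107% of all genes were. All 7 constant genes of the receptor listed were tested. Their sum at day 0 was 39.4 and 28.3 CPM in KO, against 53.9, 47.2, 37.5 and 52.2 CPM in WT, so that 1 WT library lay between the KO values. At day 14 it was 24.9 to 51.1 CPM in KO and 29.6 to 57.5 CPM in WT. Trac had values of -0.02 at day 14 (SE 0.217, adjusted p = 0.986) and -0.36 at day 0 (SE 0.315, adjusted p = 0.859), by edgeR. The beta chain gene Trbc1 was at -0.28 at day 14 (SE 0.186) and -0.7 at day 0 (SE 0.272, unadjusted p = 0.0201, adjusted p = 0.704, edgeR). Trbc1 and Trbc2 are near-identical copies, so the split of reads between them is uncertain.

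The gamma chain gene Tcrg-C4 had the lowest value among the constant genes at day 0, -1.64 (SE 0.415, unadjusted p = 0.000928, adjusted p = 0.471, edgeR). It was a low-count gene, at 0.177 and 0.372 CPM in KO and 0.711 to 1.003 CPM in WT, without overlap. At day 14 it measured 0.360 to 0.841 CPM in KO and 0.434 to 0.928 CPM in WT, and its value was -0.09 (SE 0.26, adjusted p = 0.953, edgeR). Tcrg-C1, another gamma chain constant gene, stood at 0.13 at day 0 (SE 0.321), so the gamma genes did not all stand on 1 side. Gamma constant genes are close copies of each other, and how reads were split between them is uncertain.

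Of 42 genes of the wider receptor pathway, which covers further kinases, adaptors, calcium channels and phosphatases, none was called in any of the 5 comparisons. Of all genes 0.0256% were called between the genotypes at day 0, 0.107% at day 14 and 0.0% in the other comparisons. At day 0, 37 of the 42 were below 0, with a median of -0.174, and at day 14, 35 were, with a median of -0.0754. Of all genes 49.7% were below 0 at either day. The lowest at day 0 was Sla2, an adaptor that dampens the receptor, at -0.86 (SE 0.331, adjusted p = 0.697, edgeR). The highest was Ubash3b, the broadly expressed relative of Ubash3a, at 0.13 (SE 0.157, adjusted p = 0.916, edgeR). Many of these genes are also expressed in other cells of the lung.

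Genes of T cell states had none called in any comparison, where at most 0.107% of all genes were. Between the genotypes 49.7% of all genes were below 0 at either day. The 8 genes of naive and recirculating T cells had a median of -0.728 at day 0 with 7 below 0, the chemokine receptor gene Ccr9 lowest at -1.07 (SE 0.39, adjusted p = 0.676, edgeR). These 8 genes summed to 932.1 to 1699 CPM in the 17 libraries, and the 32 T cell genes to 258.8 to 504.3 CPM. RNA of the naive list thus need not come from T cells alone. Ccr7, which guides naive cells to lymph nodes, measured 14.8 and 16.3 CPM in KO, against 25.0 to 41.4 CPM in WT (-0.98, SE 0.427, adjusted p = 0.729, edgeR). At day 14 the naive list had a median of -0.16 with 7 of 8 below 0. Effector and memory genes, 12 of 14 tested, had a median of -0.203 at day 0 with 8 below 0 and 0.0468 at day 14 with 6 below 0. Cd69, a receptor of recent activation and tissue residence, was lowest at day 0 (-1.41, SE 0.618, adjusted p = 0.729, edgeR), and the integrin gene Itgae highest (0.4, SE 0.201, adjusted p = 0.75, edgeR).

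Of 15 lineage-defining factors 13 were below 0 at day 0, with a median of -0.266. The 15 genes summed to 759.1 to 907.8 CPM in the 17 libraries, more than the 32 T cell genes, so their RNA need not come from T cells alone. An unadjusted p under 0.05 was found for 8 of them, none called, and for 6.74% of all genes. Those 8 included the factors above 0, Id3 and Zbtb7b (0.16, SE 0.0721). Eomes, a factor of NK and cytotoxic T cells, was lowest at both days, at -0.91 at day 14 (SE 0.333, adjusted p = 0.43) and -1.44 at day 0 (SE 0.493, adjusted p = 0.661), by edgeR. Id3, an inhibitor of E proteins, was highest at both, at 0.44 at day 14 (SE 0.138, adjusted p = 0.367) and 0.47 at day 0 (SE 0.195, adjusted p = 0.72), by edgeR. Foxp3, the factor of regulatory T cells, measured 1.24 and 1.64 CPM in KO at day 0, against 0.982 to 2.19 CPM in WT, with overlap (-0.13, SE 0.341, adjusted p = 0.964, edgeR). Gzmk, Ifng and Il17a, genes of effector cytokines and a granzyme, stayed under 0.5 CPM in all 17 libraries, so nothing can be read of them at this depth.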

How the data were processed

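Lung RNA was measured in 17 libraries, grouped by labelled genotype and day. Expected counts per gene were made by the authors with STAR 2.5.3 and RSEM 1.3.0 on mm10, per the submitters' processing notes, which also name limma 3.38.3; their role, and the annotation, are not given in the sources used here. The deposited expected counts were not whole for 13.86 to 17.14% of genes in a library and were rounded. The authors also deposited FPKM for all libraries in 1 table, used here for levels per length and as an alternative. Per the labels RNA was prepared with Qiagen RNeasy and Illumina TruSeq v4, and no strand setting is stated, so overlapping genes may share reads.

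In R 4.3.3, edgeR 4.0.16 filtered genes by group (filterByExpr), scaled libraries by TMM (factors 0.977 to 1.01) and fitted 1 model of 4 groups (robust glmQLFit, two-sided glmQLFTest, common biological coefficient of variation 0.152). P-values were adjusted by Benjamini and Hochberg's method over the 19557 genes tested, and genes under 0.05 were called. SE is the log2 value divided by the root of F, and intervals use the t quantile of the fit. CPM use the scaled library sizes. Alternatives were DESeq2 1.42.0, limma-voom and limma (limma 3.58.1) on log2(FPKM + 1) or log2(FPKM + 0.1) for genes with a mean of at least 0.5 FPKM in a group, other size factors, no filter, only the groups compared, and each library left out. The code was tested on simulated counts.

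The 32 genes and all other lists were chosen with earlier results of these data known. Values by library are given for the gene with the smallest p in each comparison and the most abundant gene of each role, and any gene called would have been added. Outside this rule, values by library are also given for Cd8a, Sh2d2a, Gata3 and Sit1, and some for Cd3d. Values of some genes beyond the 32, such as Ccr7 and Foxp3, are given outside it too. Promoter windows are RefSeq's (GRCm38.p6) and gene positions GENCODE's (GRCm38). The gamma constant genes were listed under both of their names, and the files use Tcrg-C1, Tcrg-C2 and Tcrg-C4. Tables and figures were made with pandas 2.3.3 and matplotlib 3.10.9.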

Additional observations from a re-analysis of the deposited data

Results flagged for a closer look

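In 7 of 99 gene and group pairs of 4 to 6 libraries, 1 library stood far from the rest of its group by Dixon's criterion, which chance alone meets in about 1 of 20 groups. In WT at day 14, library 3 was far above the others for 4 genes. It had 12.3 CPM of Cd8a where the next library had 7.31 CPM, 20.1 CPM of Sh2d2a where the next had 9.37 CPM, 25.7 CPM of Ptpn22 where the next had 14.2 CPM, and 5.52 CPM of Cd96, an inhibitory receptor of T and NK cells, where the next had 3.384 CPM. The same library had the highest sum of T cell genes, 504 CPM, and of NK cell genes, 260.0 CPM, of all 17 libraries.

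In WT at day 0, library 1 had 22.5 CPM of Lef1 where the next had 18.2 CPM, and 1.10 CPM of Sit1 where the next had 0.752 CPM. KO library 3 of day 14 had 13.3 CPM of Bcl11b where the next library had 7.52 CPM.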

How the results depend on the processing

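No setting called any of the 32 genes in any comparison, and every median log2 value moved by less than 0.301, the SD of the list's mean between libraries of a group. With 1 library left out, the medians ran from -0.573 to -0.358 for KO over WT at day 0, from -0.188 to 0.0357 at day 14, from 0.119 to 0.358 for day 14 over day 0 in KO, from -0.253 to -0.0576 in WT, and from 0.265 to 0.472 for the difference of the KO effects. Over the other settings they ran from -0.464 to -0.342, from -0.0955 to -0.0635, from 0.158 to 0.203, from -0.197 to -0.13 and from 0.313 to 0.349, in the same order. The count of genes with both KO libraries below all WT libraries at day 0 ran from 16 to 28 with 1 library left out, a setting chosen after seeing the data, and was 13 in FPKM. The number of the 32 with an unadjusted p under 0.05 at day 0 reached 15 when only the day 0 groups were fitted, where 1649 of 18588 genes had such a p. Over all genes DESeq2 called 26, 109, 93, 113 and 9 genes in the 5 comparisons, in the order above, against 5, 21, 0, 0 and 0 by edgeR, and the day 0 groups alone gave 13. With each library left out, 2 to 7, 15 to 27, 0 to 12, 0 to 22 and 0 to 1 genes were called. Causes were not tested. No paired analysis was possible because no label ties a library of 1 group to a library of another. The labels give no replicate number, and the library numbers used here follow the order of the samples within each group. KO had 2 libraries at day 0, which limits precision there, and low counts limit Sit1, Ubash3a and Tcrg-C4.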

Other observations

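Blood and innate lymphoid genes gave values outside the comparisons above. The 5 genes of red blood cells, haemoglobin genes and the haem synthesis gene Alas2, summed to 7725 to 31820 CPM in KO at day 14, against 6839 to 13140 CPM in WT. The 31820 CPM came from KO library 5, which also had the highest Rag1 and Dntt values. The other KO libraries of day 14 had 7821, 10970, 10170 and 7725 CPM, within the range of WT. At day 0 the sums were 6472 and 14030 CPM in KO, against 5801 to 13210 CPM in WT. Il5, a cytokine gene of group 2 innate lymphoid cells, had a KO over WT value of 0.41 at day 14 (SE 0.354, adjusted p = 0.779) and -1.99 at day 0 (SE 0.612, adjusted p = 0.619), by edgeR. As it stayed under 0.5 CPM in every library, nothing can be read of Il5 at this depth. Glycam1, a gene of lymph node venules, spread widely, from 0.313 to 7.07 CPM in KO at day 14, against 0 to 0.237 CPM in WT, and at 0.149 and 0.494 CPM in KO at day 0, against 0 to 17.8 CPM in WT.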
